A study of Mus musculus with 4 samples.

Results

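The aminoacyl-tRNA synthetase genes were followed through the list of chromatin sites that gained accessibility in hearts without SMYD1, a muscle histone methyltransferase. The members were the protein-coding genes of GENCODE release M21 whose symbol is 1 capital letter followed by ars, ars1 or ars2, together with *Eprs*, *Farsa*, *Farsb*, *Tarsl2* and *Sepsecs*. This rule, which used no measured value, took 39 of 21938 protein-coding genes. Of these, 19 encode cytosolic enzymes, 17 encode mitochondrial enzymes, *Gars* and *Kars* each serve both compartments, and *Sepsecs* completes selenocysteine on its tRNA. ATAC-seq, in which the Tn5 transposase cuts open chromatin, was applied to hearts at embryonic day 9.5 (E9.5). The WT and *Smyd1-KO* groups had 2 libraries each, and every library came from a pool of 4 hearts and 40000 viable cells. The labels of the 4 libraries give the stage, tissue, genotype and a replicate number, and name no treatment. Per the study's methods the mutant line comes from *Smyd1* heterozygous mice, and its introduction describes *Smyd1-KO* as a conventional null. For this line the methods name no Cre driver that would limit the loss to cardiomyocytes.

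The values are pooled. Of the differential peaks deposited, 25745 were enriched in *Smyd1-KO* hearts by 2-fold or more and are called gained peaks here, and 106 were enriched in WT hearts by the same limit. Each is 149 bp wide and carries a score, the authors' tag value for the pooled libraries of the genotype where it was called. Scores run in steps of 0.5 in the gained list, where 12889 of 25745 are not whole, so they are scaled or averaged values and not raw reads. They are written as tags below. No library has a value of its own, so the scores have no replicate error and no test of genotype was possible. The gained list had a median score of 180.5 tags and a range of 24.5 to 18591. Peaks that did not differ between the genotypes were not used here, so a gene with no gained peak may be open in both. In a bulk sample, more cells of a type and a more open site per cell cannot be told apart. The lists hold no levels of heart marker genes, so the labelled tissue was not checked. *Smyd1* itself had no peak of either list within 3 kb of a transcription start site (TSS), and 2 gained peaks lay inside the gene.

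Aminoacyl-tRNA synthetases join each amino acid to its tRNA and so supply the ribosome. Nuclear genes encode both sets of enzymes, one for the cytosol and one for protein synthesis inside mitochondria, and most amino acids have a separate gene for each. In the cytosol several of the enzymes sit together in the multisynthetase complex. When amino acids run short, the kinase GCN2 senses uncharged tRNA and the transcription factor ATF4 is made, and genes of cytosolic synthetases are among the known ATF4 targets. Heart muscle is rich in mitochondria, and inherited defects of several mitochondrial synthetases are known to affect it.

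A gene counted if the closer edge of a gained peak was at most 3 kb from one of its annotated TSSs. By this measure 36 of 39 synthetase genes (92.3%, exact Clopper-Pearson 95% interval 79.1 to 98.4, counting error only) had a gained peak. Among all protein-coding genes the percentage was 51.2, and among genes whose start is rich in CpG it was 78.3. A start was called CpG-rich when the 500 bases around the 5′ end of the gene had at least 55% GC and an observed to expected CpG ratio of at least 0.6. Such starts were found at 33 of the 39 members and at 44.4% of all protein-coding genes. Of those 33 members, 31 had a gained peak, and of the 6 without such a start, 5 did. Those 6 were *Aars*, *Farsa*, *Lars*, *Nars*, *Qars* and *Tars2*. The peaks of *Qars*, *Tars2* and *Aars* lay outside the 500 bases in which CpG content was scored. Those of *Qars* lay beyond the 3′ end of the gene, 2147 and 2864 bp from a *Qars* TSS. That of *Tars2* covered a TSS away from the 5′ end, and that of *Aars* lay 10 bp from a TSS. When only TSSs within 1 kb of the 5′ end counted, 3 of the 6 had a gained peak. No synthetase gene had a WT-enriched peak within 3 kb or within 10 kb. The percentage of all genes with a WT-enriched peak within 3 kb was 0.0228. The smallest distance from a member TSS to such a peak was 231874 bp, at *Eprs*.

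The gained peaks that lay at synthetase starts are shown here by 8 of their sequences, chosen because they carry little or no untranslated sequence. They include *Vars*, *Tars*, *Cars* and *Tarsl2*, which stood high among the cytosolic genes, *Eprs*, and the mitochondrial genes *Sars2*, *Pars2* and *Lars2*. Sequences are from mm10 (GRCm38) and run 5′ to 3′ on the strand of the gene. Where a peak reached into a 5′ UTR, only the stretch outside it is given. Capitals mark matches on either strand to any of 8 motif strings, which are spelled out further on.

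*Vars*, chr17:35000860-35000986, plus strand: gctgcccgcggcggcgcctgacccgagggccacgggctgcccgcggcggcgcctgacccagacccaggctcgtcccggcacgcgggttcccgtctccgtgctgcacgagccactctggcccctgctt

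*Tars*, chr15:11399666-11399805, minus strand: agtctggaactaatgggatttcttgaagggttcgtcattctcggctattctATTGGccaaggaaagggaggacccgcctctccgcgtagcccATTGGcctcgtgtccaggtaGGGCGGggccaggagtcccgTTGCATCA

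*Cars*, chr7:143600105-143600253, minus strand: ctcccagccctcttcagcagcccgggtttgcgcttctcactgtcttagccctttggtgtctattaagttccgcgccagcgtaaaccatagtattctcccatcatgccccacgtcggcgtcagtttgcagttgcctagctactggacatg

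*Tarsl2*, chr7:65644695-65644843, plus strand: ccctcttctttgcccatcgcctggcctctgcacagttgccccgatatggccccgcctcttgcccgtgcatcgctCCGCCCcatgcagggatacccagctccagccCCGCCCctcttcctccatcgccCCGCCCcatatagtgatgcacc

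*Eprs*, chr1:185362863-185363011, plus strand: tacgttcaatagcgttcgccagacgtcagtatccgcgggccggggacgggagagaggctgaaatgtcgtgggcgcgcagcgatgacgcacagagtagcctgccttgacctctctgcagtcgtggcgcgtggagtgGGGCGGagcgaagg

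*Sars2*, chr7:28741821-28741937, plus strand: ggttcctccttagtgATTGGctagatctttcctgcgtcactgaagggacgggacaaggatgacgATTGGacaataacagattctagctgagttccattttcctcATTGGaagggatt

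*Pars2*, chr4:106650920-106651068, plus strand: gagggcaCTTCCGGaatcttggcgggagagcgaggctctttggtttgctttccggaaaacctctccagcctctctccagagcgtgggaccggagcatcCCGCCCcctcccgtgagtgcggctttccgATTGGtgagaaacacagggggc

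*Lars2*, chr9:123366750-123366898, plus strand: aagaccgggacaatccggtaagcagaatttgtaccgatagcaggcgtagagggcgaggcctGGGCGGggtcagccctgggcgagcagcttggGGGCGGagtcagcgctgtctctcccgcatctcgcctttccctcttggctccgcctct

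In these stretches *Tars* carried matches to 3 of the strings (SP1, CCAAT box and the C/EBP-ATF response element), whereas *Vars* and *Cars* carried none. SP1 strings recurred within the peaks of *Tarsl2* and *Lars2*, and CCAAT strings within that of *Sars2*.

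Within 3 kb, cytosolic and mitochondrial genes gained peaks at similar frequency. Of the 19 cytosolic genes, 18 had a gained peak (94.7%, exact interval 74.0 to 99.9), and of the 17 mitochondrial genes, 16 did (94.1%, 71.3 to 99.9). The cytosolic share was 0.62 percentage points higher, with a Newcombe 95% interval of -19.4 to 22.2 that covers counting error only. When a peak had to cover a TSS, 13 of 19 cytosolic and 9 of 17 mitochondrial genes counted, a difference of 15.5 percentage points (-15.2 to 42.8). The strongest promoter peaks of both sets within 3 kb were close in score. The median was 535.75 tags for the 18 cytosolic genes (range 257.5 to 771) and 536.25 for the 16 mitochondrial genes (357 to 880). The 11236 protein-coding genes with a gained peak had a median of 460.5 (quartiles 292 and 693), and 23 of the 36 synthetase genes lay above it. Most synthetase scores, of either compartment, thus fell inside the middle range of genes with a gained peak.

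**Figure D1:**
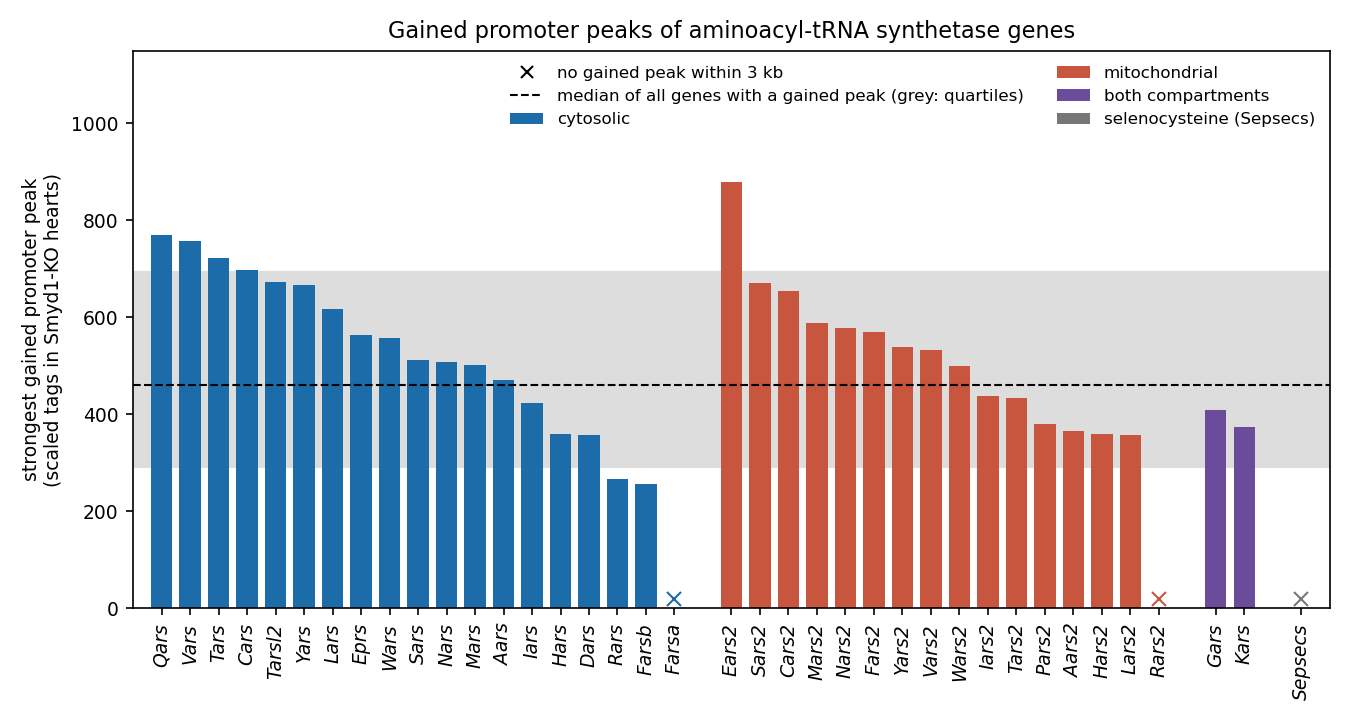
Bars give the score of the strongest gained peak within 3 kb of a TSS for synthetase genes, in scaled tags of *Smyd1-KO* hearts. The dashed line and grey band mark the median (460.5) and quartiles of all protein-coding genes with a gained peak, and crosses mark the 3 genes without one, *Farsa*, *Rars2* and *Sepsecs*.

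Among the cytosolic genes, the strongest promoter peak counted for *Qars*, the glutaminyl-tRNA synthetase (ENSMUSG00000032604.16, chromosome 9, 108507706 to 108515941), at 771 tags. That peak, chr9:108516898-108517046, lay beyond the 3′ end of *Qars*, 2147 bp from the TSS of a *Qars* transcript and 41 bp from a TSS of its neighbour *Qrich1*. A second peak of 342 tags lay 2864 bp from a *Qars* TSS and covered a TSS of *Qrich1*. Within 1 kb of its own starts *Qars* had no gained peak. With that narrower distance, 17 cytosolic and 16 mitochondrial genes counted.

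*Vars*, the valyl-tRNA synthetase (ENSMUSG00000007029.16, chromosome 17, 35000987 to 35016322), had a peak of 758 tags that covered a TSS. For *Tars*, the threonyl-tRNA synthetase (ENSMUSG00000022241.6, chromosome 15, 11382301 to 11399665), the peak of 722 tags also covered a TSS. These scores ranked 1997 and 2287 among the 25745 gained peaks. *Cars* for cysteine followed with 698.5 tags, *Tarsl2*, a further threonyl-tRNA synthetase gene, with 674, *Yars* for tyrosine with 666.5 and *Lars* for leucine with 618. At the lower end stood *Farsb*, the beta subunit of the phenylalanyl-tRNA synthetase (ENSMUSG00000026245.16, chromosome 1, 78417975 to 78488897), with 257.5 tags. *Rars* for arginine (ENSMUSG00000018848.4, chromosome 11, 35808381 to 35834506) had 267.5 tags, and *Dars* for aspartate (ENSMUSG00000026356.15, chromosome 1, 128363707 to 128417368) had 358. All 3 of these weaker peaks covered a TSS. The other cytosolic genes ran from 359 tags at *Hars* (histidine) over 423 at *Iars* (isoleucine), 471 at *Aars* (alanine), 501.5 at *Mars* (methionine), 508 at *Nars* (asparagine), 513 at *Sars* (serine) and 558.5 at *Wars* (tryptophan) to 563 at *Eprs*, whose protein charges both glutamate and proline.

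The mitochondrial genes were led by *Ears2*, for glutamate (ENSMUSG00000030871.11, chromosome 7, 122037213 to 122067263). Its peak of 880 tags, chr7:122067167-122067315, covered a TSS of *Ears2* and one of the divergent gene *Ubfd1*, and was the highest promoter score of any member. *Sars2* for serine (ENSMUSG00000070699.5, chromosome 7, 28741992 to 28753871) had 671 tags in a peak 55 bp from its TSS that covered one of *Mrps12*, a mitochondrial ribosomal protein gene. In both cases the peak was thus shared with a neighbour read in the opposite direction. The weakest were *Lars2* for leucine (ENSMUSG00000035202.8, chromosome 9, 123366927 to 123462666) with 357 tags at 29 bp, *Hars2* for histidine (ENSMUSG00000019143.15, chromosome 18, 36783008 to 36792562) with 359 at 9 bp, and *Aars2* for alanine (ENSMUSG00000023938.8, chromosome 17, 45506841 to 45520843) with 366.5 at 113 bp. Between these ends lay *Pars2* for proline (380), *Tars2* for threonine (434), *Iars2* for isoleucine (438), *Wars2* for tryptophan (501), *Vars2* for valine (532.5), *Yars2* for tyrosine (540), *Fars2* for phenylalanine (570.5), *Nars2* for asparagine (578), *Mars2* for methionine (588.5) and *Cars2* for cysteine (654).

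The genes that serve both compartments were both below the median of all genes with a gained peak. *Gars* for glycine (ENSMUSG00000029777.10, chromosome 6, 55038007 to 55079500) had 408.5 tags and *Kars* for lysine (ENSMUSG00000031948.14, chromosome 8, 111993443 to 112011323) had 375, each in a peak that covered a TSS. Setting cytosolic and mitochondrial genes with the same amino acid letter side by side gave 17 pairs, with *Eprs* set against *Ears2* and each phenylalanyl subunit against *Fars2*, and 15 of them had 2 scores. The cytosolic gene was higher in 7, the mitochondrial gene was higher in 7, and *Hars* and *Hars2* were equal because they share a single peak, which covers a TSS of *Hars* and lies 9 bp from one of *Hars2*. Within these pairs the widest gaps in favour of the cytosolic gene were 288 tags for threonine, 261 for leucine and 225.5 for valine. Gaps in favour of the mitochondrial gene included 317 tags for glutamate and 313 for phenylalanine by *Farsb*. The median difference over these 15 pairs was 0, which is the value of the *Hars* and *Hars2* pair with its shared peak. *Eprs* also charges proline and *Tarsl2* threonine, and setting them against *Pars2* (563 and 380 tags) and *Tars2* (674 and 434) as well made the cytosolic gene higher in 9 of 17 pairs, the mitochondrial gene in 7, and the median difference 44.5 tags in favour of the cytosolic gene. The balance between the compartments thus rested on which pairs were set.

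**Figure D2:**
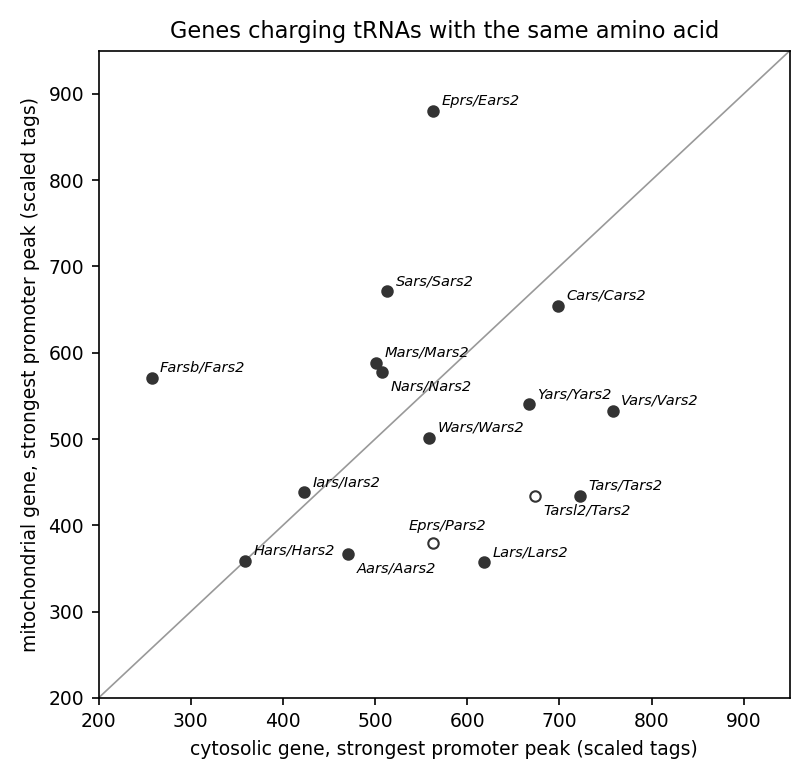
Points are pairs of genes, with the strongest promoter peak of the cytosolic gene on the horizontal axis and of the mitochondrial gene on the vertical axis, both in scaled tags of *Smyd1-KO* hearts. Points lie on both sides of the line of equality, with *Hars* and *Hars2* on it. Open points are the further pairs of *Eprs* with *Pars2* and *Tarsl2* with *Tars2*.

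Synthetase peaks sat close to the start. The strongest peak covered a TSS in 24 of 36 genes (13 of 18 cytosolic, 9 of 16 mitochondrial, and both *Gars* and *Kars*), compared with 49.8% of all genes with a gained peak. It lay within 100 bp of a TSS in 34 of 36, compared with 73.7%. *Qars* (2147 bp) and *Aars2* (113 bp) were the exceptions. More than 1 gained peak within 3 kb was found at *Aars2*, *Dars*, *Iars2*, *Mars*, *Qars* and *Yars2*, that is at 6 of 39 members, compared with 11.8% of all genes. The second peak of *Iars2*, with 418 tags at 2678 bp, covered a TSS of *Bpnt1*. In all, 8 of the 42 pairings of a member with a promoter peak lay closer to a TSS of another gene. The farthest pairing inside the 3 kb limit was that of *Qars* at 2864 bp, and the nearest outside it was a peak 4993 bp from *Cars2* with 1361.5 tags, which lay 139 bp from a TSS of *Ing1*.

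**Figure D3:**
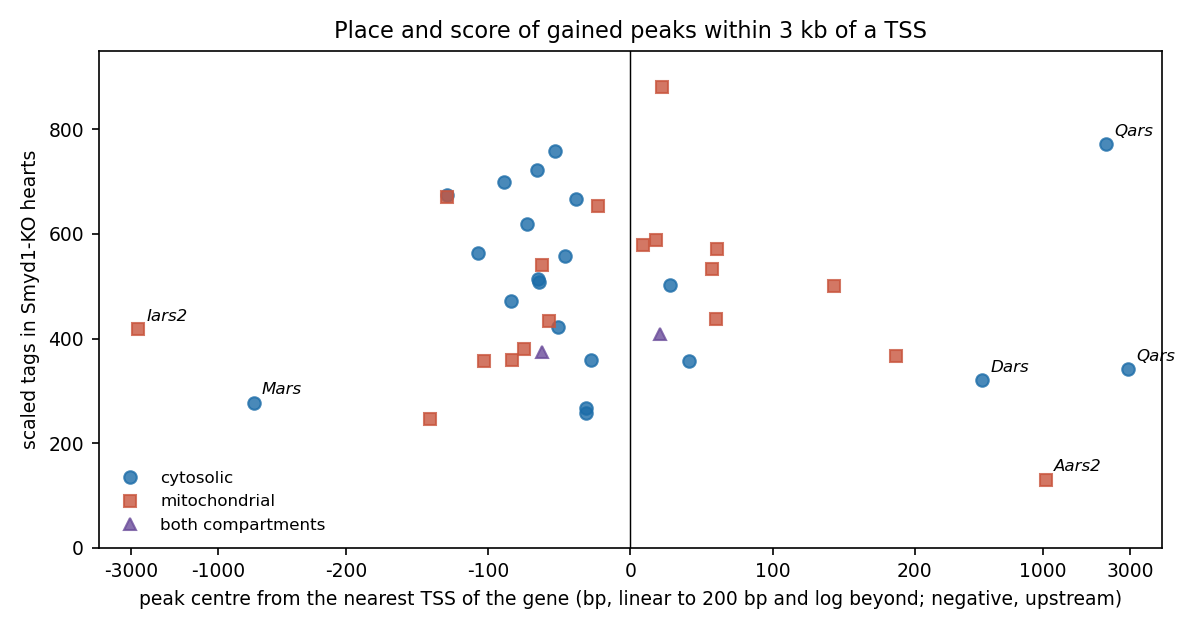
Points are gained peaks within 3 kb of a TSS of synthetase genes, placed by the peak centre relative to the nearest TSS of that gene (bp, negative upstream, linear to 200 bp and logarithmic beyond) and by score in scaled tags. Nearly all points lie within 200 bp of the start, and those farther out are named.

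Shared starts were common. A protein-coding gene on the other strand with its 5′ end within 1 kb was found at 10 of 39 members, compared with 11.4% of all protein-coding genes. These were 6 mitochondrial genes (among them *Ears2*, *Fars2*, *Hars2*, *Rars2* and *Sars2*), 3 cytosolic genes (*Hars*, *Wars* and *Yars*), and *Kars* beside *Terf2ip*. The distance between the paired starts ran from 13 bp for *Rars2* and *Orc3* to 182 bp for *Sars2* and *Mrps12*. A peak at such paired starts cannot be given to either gene alone. The 41 distinct promoter peaks of the members had a median GC content of 63.1% (range 49.7 to 78.5), compared with 65.8% over the 12520 gained peaks within 3 kb of a protein-coding TSS. Their median CpG ratio was 0.856, compared with 0.770. None of the 41 held a 36-base word that recurs in the 21 assembled chromosomes.

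The members without a gained peak were *Farsa*, *Rars2* and *Sepsecs*. *Farsa*, the alpha subunit of the phenylalanyl-tRNA synthetase (ENSMUSG00000003808.18, chromosome 8, 84856989 to 84869257), had its nearest gained peak at 9911 bp. That peak had 1084.5 tags and covered a TSS of *Calr*, the calreticulin gene. Its partner subunit *Farsb* had the lowest score among the strongest promoter peaks of the members, 257.5 tags. *Rars2*, the mitochondrial arginyl-tRNA synthetase (ENSMUSG00000028292.14, chromosome 4, 34614957 to 34660167), had its nearest gained peak at 39458 bp, with 528.5 tags. *Sepsecs* (ENSMUSG00000029173.12, chromosome 5, 52640087 to 52669708) had a weak peak of 53 tags at 18119 bp. *Rars2* and *Sepsecs* have CpG-rich starts of 64.4% GC, and *Farsa* falls just short of the limit at 54.8%. For comparison with the peaks above, the 200 bases before the RefSeq start of *Farsa* are given, and for *Rars2* the part of those 200 bases that lies outside the 5′ UTR of *Orc3*.

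*Farsa*, chr8:84856786-84856985, plus strand: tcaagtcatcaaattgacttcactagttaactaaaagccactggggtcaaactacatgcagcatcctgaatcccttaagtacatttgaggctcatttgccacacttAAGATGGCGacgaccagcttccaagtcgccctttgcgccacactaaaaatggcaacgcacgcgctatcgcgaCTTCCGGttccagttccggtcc

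*Rars2*, chr4:34614757-34614888, plus strand: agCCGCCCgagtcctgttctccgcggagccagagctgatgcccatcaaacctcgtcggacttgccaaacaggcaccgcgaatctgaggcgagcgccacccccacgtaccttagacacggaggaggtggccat

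*Farsa* held a YY1 string and an ETS string in this stretch and *Rars2* an SP1 string. The *Rars2* stretch ends short of the *Rars2* start. Whether such strings bear on the absence of a gained peak was not tested.

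Motif strings were counted in 28 of the 39 members, those matched to a RefSeq promoter of GRCm38.p6 that runs from 250 bases before to 50 after the start, and in the 41 promoter peaks. The background was 1 such promoter for each of 17492 protein-coding genes, and the 12520 promoter peaks of all genes. The 8 strings were read on both strands, and none lies inside another. The E-box was read as CACGTG, the site of NRF1 as GCGCATGCG and that of ETS factors as CCGGAAG. For YY1 the string was AAGATGGCG, for SP1 it was GGGCGG, and the CCAAT box was read as the letters of its name. The TATA box was read as TATAAA, and the C/EBP-ATF response element, the kind of site that ATF4 binds, as TGATGNAA. A match describes letters and does not show that a factor is bound.

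The C/EBP-ATF string occurred in 5 of 28 synthetase promoters (17.9%), compared with 3.69% of all promoters. Those 5 belonged to *Aars*, *Gars*, *Iars*, *Tars* and *Yars*, that is to 4 of 12 cytosolic genes, 0 of 14 mitochondrial genes and 1 gene of both compartments. In the gained peaks it occurred in 4 of 41 (9.76%, at *Aars*, *Gars*, *Nars* and *Tars*), compared with 0.679% of all promoter peaks. Matches in these promoters are shown in windows of 30 bases on the strand that reads TGATGNAA, with the string in capitals. The promoters of the other 11 members were not searched, and the difference between the compartments was not tested.

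*Aars*, chr8:111033840-111033869, minus strand: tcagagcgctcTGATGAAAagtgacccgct

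*Gars*, chr6:55037960-55037989, minus strand: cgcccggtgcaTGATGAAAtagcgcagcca

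*Iars*, chr13:49682126-49682155, minus strand: gcgtctggaggTGATGCAAtactgacagtg

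*Tars*, chr15:11399655-11399684, plus strand: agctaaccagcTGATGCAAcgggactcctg

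*Yars*, chr4:129189895-129189924, plus strand: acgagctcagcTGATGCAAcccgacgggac

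The string of *Aars* shown, centred 12 bases after the RefSeq start, lay inside its gained peak of 471 tags. Those of *Gars* and *Tars*, 26 and 12 bases before the start, also lay inside their peaks of 408.5 and 722 tags. The strings of *Iars* and *Yars*, 10 and 6 bases after the start, lay outside their peaks.

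The YY1 string occurred in 4 of 28 synthetase promoters (14.3%), compared with 1.94% of all promoters, namely at *Farsa* and at the mitochondrial genes *Aars2*, *Wars2* and *Yars2*. It lay wholly inside a gained peak in none of the 41. The windows, again with the string in capitals, show how near it lies to the start.

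*Aars2*, chr17:45506841-45506870, plus strand: gcccggagctAAGATGGCGgtggcgttggc

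*Farsa*, chr8:84856882-84856911, plus strand: tgccacacttAAGATGGCGacgaccagctt

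*Wars2*, chr3:99141086-99141115, plus strand: cgcccttctcAAGATGGCGctgttctctgt

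*Yars2*, chr16:16302971-16303000, plus strand: cgtgtcccgcAAGATGGCGgcgcccatgct

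In *Aars2*, *Wars2* and *Yars2* the string was centred 23, 10 and 20 bases after the RefSeq start, and in *Farsa* 90 bases before it. The ETS string was found in 9 of 28 promoters (32.1%), compared with 11.9%, and in 13 of 41 peaks (31.7%), compared with 8.89%. Its peaks spanned both compartments and included *Cars2*, *Mars2*, *Pars2* and *Sars2* beside *Dars*, *Mars*, *Rars* and *Sars*. SP1 strings were found in 20 of 28 promoters (71.4%, compared with 46.3%) and in 20 of 41 peaks (48.8%, compared with 50.4%). E-boxes were found in 5 promoters (17.9%, compared with 7.90%), at *Aars*, *Farsb*, *Iars* and *Tars* of the cytosolic genes and *Ears2* of the mitochondrial genes, but in a single peak, that of *Iars*. The NRF1 string occurred in the promoters of *Vars2* and *Wars2* only (7.14%, compared with 2.41%) and in no member peak. CCAAT strings were found in 13 promoters (46.4%, compared with 39.0%) and 13 peaks (31.7%, compared with 24.2%), and TATAAA in 3 (10.7%, compared with 13.3%). Promoter shares and peak shares need not be alike, since a peak is shorter than a promoter window and is placed differently around the start.

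**Figure D4:**
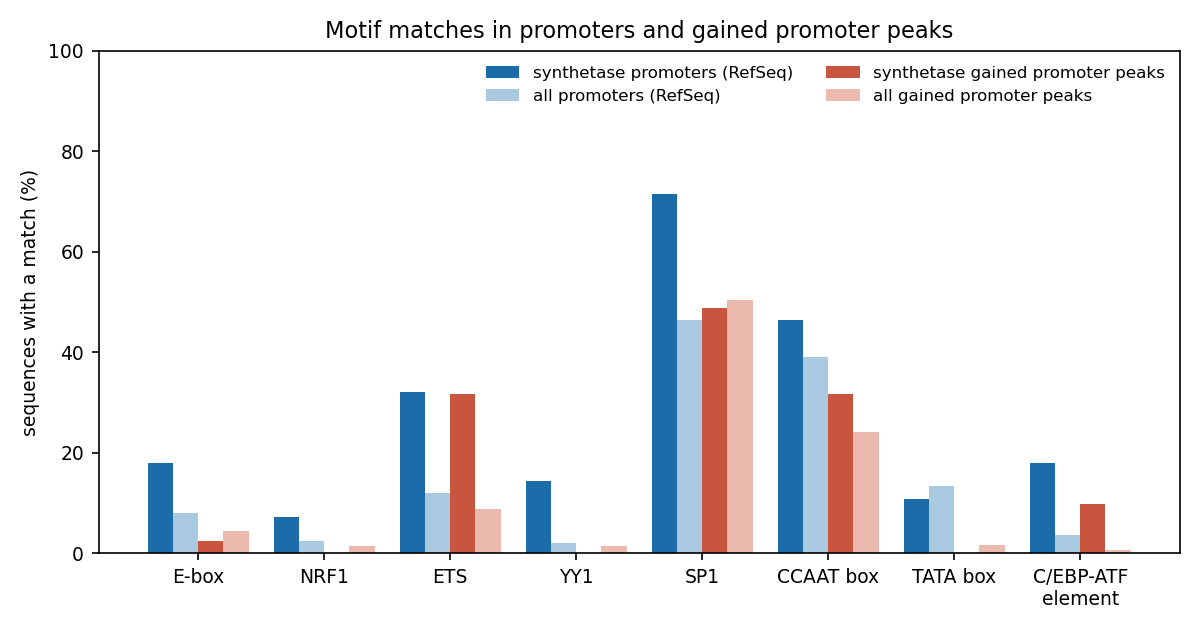
Bars give the percentage of sequences with a match on either strand to each motif string, for 28 synthetase promoters, 17492 promoters of protein-coding genes, 41 synthetase promoter peaks and 12520 promoter peaks of all genes. The C/EBP-ATF, ETS and CCAAT strings have a higher percentage in the synthetase sequences of both kinds.

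Beyond 3 kb, 20 further gained peaks lay within 10 kb of a synthetase TSS or inside a member gene, with scores from 37 to 8436.5 tags. Several of the stronger ones lay at or near starts of neighbours. They included the *Ing1* peaks of 1361.5 and 1360.5 tags beside *Cars2*, the *Calr* peak of 1084.5 tags beside *Farsa*, a peak of 876 tags beside *Mars* that is also the strongest promoter peak of *Ddit3*, a peak of 617.5 at the start of *Exosc6* inside *Aars*, the peak of 416 at *Mbd6* beside *Mars*, and the peak of 391 at *Gtf2h4* beside *Vars2*. Inside gene bodies more than 10 kb from a TSS of the host gene, 10 gained peaks were listed, 6 in *Fars2* (44.5 to 199.5 tags), 2 in *Farsb* (37 and 100.5) and 2 in *Wars2* (63 and 64). The promoter peaks ran from 130.5 tags, at a second peak of *Aars2*, to 880, and all of these gene-body peaks but the one of 199.5 tags in *Fars2* lay below that range.

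*Lars2* carried a peak unlike any other of the family. It lay at chr9:123461935-123462083 in the 3′ UTR, 583 bp from the 3′ end of a gene of 95740 bp, and 84199 bp from the nearest TSS of a protein-coding transcript. Its score was 8436.5 tags, which ranked 3 among 25745 gained peaks. This was 23.6 times the promoter peak of *Lars2* and 46.7 times the median of the list, and the next highest score around any member was 1361.5. The nearest annotated TSS of *Lars2*, that of a transcript with a retained intron, was 7145 bp away, so the peak did not count under the 3 kb rule and *Lars2* counted by its promoter peak alone.

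The sequence under this peak is not unique. Of its 114 words of 36 bases, 72 (63.2%) recur in the assembled chromosomes, with up to 7 copies, and none matches the mitochondrial genome. Sequence outside the 21 assembled chromosomes and the mitochondrial genome was not searched, so these counts of copies are lower limits. Words of the peak were found at 9 loci on 8 other chromosomes, and none of those loci had a gained peak within 1 kb. Aligned whole with BLAST+, the peak gave 15 alignments elsewhere, 6 of them over 149 bases or more at 81.2% to 97.3% identity. Of these 6, 4 were more than 93% identical, the closest on chromosome 19, and 1 of the others lay on chromosome 9 itself. The 30 bases of the peak with the most exact copies are given below, and they occur 8 times on 7 chromosomes.

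*Lars2* 3′ peak, chr9:123461945-123461974, plus strand: cagaaaagttaccacagggataactggctt

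By contrast, the *Lars2* promoter peak printed above held no recurring word. In the gained list 268 peaks had as large a share of recurring words as the 3′ peak or a larger one. The other 369 peaks with over 50% recurring words had a median score of 81.5 tags (range 30.5 to 2199), all below 8436.5. Among the 10 highest scores of the list, 6 had more than 10% recurring or mitochondrial words, compared with 4.35% of the whole list. How reads with several possible positions were placed is not stated, and the part of the recurring sequence in this score was not tested.

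**Figure D5:**
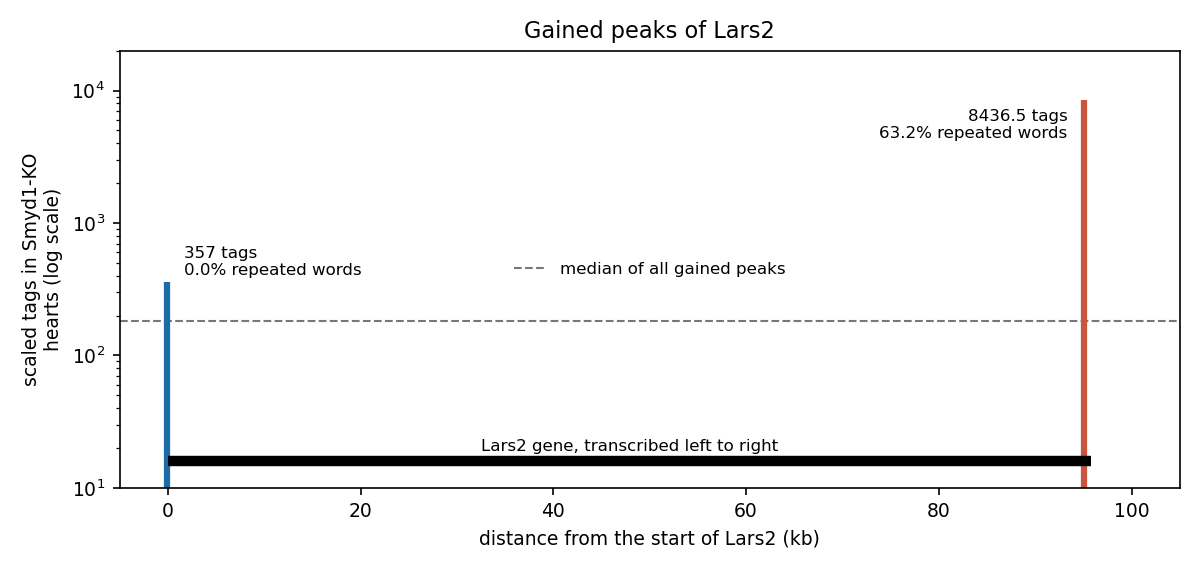
The gained peaks of *Lars2* by distance from the start of the gene (kb) and by score in scaled tags of *Smyd1-KO* hearts, on a log axis. The 3′ peak (8436.5 tags, 63.2% recurring 36-base words) stands far above the promoter peak (357 tags, no recurring word) and the list median, drawn as a dashed line.

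Genes that work beside the synthetases were read by the same 3 kb rule from lists chosen by function. In all, 27 of 37 had a gained peak, compared with 51.2% of all protein-coding genes and 78.3% of those with a CpG-rich start. None had a WT-enriched peak, compared with 0.0228% of all protein-coding genes. The scaffold proteins of the multisynthetase complex, *Aimp1*, *Aimp2* and *Eef1e1*, all had one (3 of 3), with *Aimp2* highest at 799.5 tags. The cytosolic elongation factors, which bring charged tRNA to the ribosome and move it along, had 5 of 5. The highest of these was *Eef2* at 905.5 tags, in a peak 1719 bp from an *Eef2* TSS and 87 bp from one of *Dapk3*. Mitochondrial elongation factors had 3 of 4, with *Tufm* highest at 554 tags and *Tsfm* without a peak. Of the genes that make glutaminyl-tRNA or formyl-methionyl-tRNA in mitochondria, 3 of 4 had one, with *Gatb* highest at 661 tags and *Gatc* without. The tRNA editing factors, which remove wrongly joined amino acids, had 2 of 4, with *Prorsd1* highest at 378.5 tags and *Aarsd1* and *Dtd2* without.

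In the selenocysteine pathway, in which *Sepsecs* acts, 2 of 5 listed genes had a gained peak. They were *Pstk*, the kinase that acts just before SEPSECS (508.5 tags), and *Secisbp2* (471 tags), and *Eefsec*, *Sephs2* and *Trnau1ap* had none. In the amino acid response, 9 of 12 genes had one. The highest was *Ddit3*, a stress transcription factor, at 876 tags, and *Eif2ak4*, which encodes GCN2, had 845.5 and *Atf4* 551. *Chac1*, *Psat1* and *Slc7a11* had none. Shares of such short lists carry wide counting error and are given as a description.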

How the data were processed

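The authors aligned ATAC-seq reads of both genotypes (E9.5 hearts) to mm10 with BWA-MEM, called peaks with HOMER 4.10.3 and annotated them with ChIP-Seeker 1.20.0. The deposited values are a signal, a tag value per differential peak in pooled libraries, in 1 list for each genotype. Whether it is scaled or averaged is not known, and the figures call it scaled tags for short. Library depth is unknown from the lists. How duplicates, reads with several positions and the Tn5 offset were treated is not given in the sources used here.

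Peaks were joined to GENCODE M21 genes by edge distance to a TSS on the 21 assembled chromosomes (Python 3.11.15, numpy 2.4.6). Intervals are exact binomial (scipy 1.17.1), Newcombe or, for medians over pairs, taken from ranks, at 95%. Words of 36 bases were counted on both strands, and the 3′ peak of *Lars2* was aligned with BLAST+ 2.17.0. Distance and word counting were tested on simulated data. Promoters were matched by symbol (28 of 39 members, *Mars* as *Mars1*), and *Lars2* 3′ sequence was kept to 30 bases. The members, lists and motifs were chosen with earlier results of these data known. By rule all members were to be named, with full values for the 3 strongest and 3 weakest of each compartment, *Gars*, *Kars*, *Lars2* and members without a peak. A member gene, which counts and medians include, and a sequence are not reported here. Alternatives changed the distance, the TSSs, the peaks and the compartment of *Gars* and *Kars*.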

Additional observations from a re-analysis of the deposited data

How the results depend on the processing

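Over 11 alternatives, 57 values were recomputed. Requiring a peak to cover a TSS moved the number of mitochondrial genes with a gained peak to 9 of 17, and that of all members to 24. Under the other alternatives between 35 and 37 members counted, or 34 when only TSSs within 1 kb of the 5′ end were used, a setting chosen after seeing the data. *Qars* was lost with a 1 kb limit and with basic transcripts, *Qars* and *Tars2* with TSSs near the 5′ end, and *Farsa* was gained at 10 kb. The cytosolic minus mitochondrial share ran from -4.64 to 15.5 percentage points, above 0 in 8 alternatives and below 0 in 2, and neither compartment was higher throughout. Pairing *Eprs* with *Pars2* and *Tarsl2* with *Tars2* as well, also chosen after seeing the data, took the median cytosolic minus mitochondrial score from 0 to 44.5. Median scores ran from 508 to 617.5 (cytosolic) and from 536.25 to 570.5 (mitochondrial). Leaving out a replicate was not possible, since the peak lists used here combine the libraries of a genotype. No paired analysis was possible because the lists combine the libraries. Library depth is unknown from the lists, and a gene without a listed peak may still be open.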
